A study of Homo sapiens with 8 samples.

Results

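Glycolysis and hypoxia genes were examined in SK-N-MC, an established human Ewing sarcoma cell line, after siRNA against YAP1 and TAZ. The set held 35 genes, the enzymes that turn glucose into lactate, the glucose and lactate transporters, and genes of the response to low oxygen. The array reports 1 value for each transcript cluster (the probes of a locus), a gene counted as measured if a cluster bore its symbol and no other, and the brightest such cluster was read. This gave 32 genes of 22411 on the array, namely 17 glycolytic enzymes, 2 glucose transporters, 12 targets of the hypoxia-inducible factor (HIF) and HIF1A itself. SLC16A1, SLC16A3 and CA9 were not analysed here.

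The study compared 4 samples given a non-targeting control siRNA with 4 samples given combined siRNAs against YAP1 and TAZ (gene symbol WWTR1). Both groups were transfected at 10 nM with Viromer Blue, a transfection reagent, grown in the same serum-containing medium and collected at 72 h. The labels name no oxygen or glucose treatment, so all values are those of standard culture. All samples are of 1 cell line, and nothing in the labels says that replicates came from separate cultures, so p-values measure only the spread between these samples, which may be technical.

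Glycolysis splits glucose into pyruvate in the cytoplasm, and lactate dehydrogenase then turns pyruvate into lactate, which regenerates the cofactor that the pathway needs. Several steps have isozymes encoded by separate genes with different tissue patterns. HIF is a transcription factor whose alpha subunit is marked for destruction by prolyl hydroxylases when oxygen is present, and it switches on most glycolytic genes as well as genes of vessel growth, mitophagy and collagen hydroxylation. Tumour cells often run glycolysis at a high rate also with oxygen present. YAP1 and TAZ are co-activators that work through TEAD transcription factors and are restrained by the Hippo kinases.

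The signal of YAP1 was 7.64 to 7.72 on the control arrays and 6.27 to 6.42 on the YAP1/TAZ siRNA arrays (log2 scale), and it fell by 1.31 (SE 0.053, limma adjusted p = 4.73e-05). WWTR1 fell by 0.62 (SE 0.064, limma adjusted p = 0.00898). On the control arrays all 7 measured Ewing sarcoma markers had means above the median of all genes there (5.02), from FLI1 at 6.18 to STEAP1 at 13.46, and all 4 measured blood cell markers lay below it. Above it also lay 5 of 6 fibroblast markers (4.87 to 7.97 over the list), 3 of 7 epithelial markers (3.98 to 8.83) and 2 of 6 neuroblastoma markers (3.28 to 5.98), and none of these or the blood cell markers passed the test between groups. Of the Ewing sarcoma markers, 3 had differences above 0 and 4 below, from 0.46 for PRKCB (limma adjusted p = 0.102) to LIPI, which fell by 0.63 (adjusted p = 0.0136). This is a rough check, since probes differ in brightness. Control replicate 4 and YAP1/TAZ siRNA replicate 2 stood apart from the other 6 arrays along the main axis of variation (46.0% of the variance). Differences of members that turn on them are given with and without them. No label sets these arrays apart. They were picked from the values themselves, so p-values of fits that drop or block them are descriptive and no independent test.

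No member passed the test over all genes (limma, Benjamini-Hochberg adjustment over 22411 genes, threshold 0.05), where 0.214% of all genes did. The smallest adjusted p among the members was 0.108, that of ENO2. At an unadjusted p under 0.05 there were 6 of 32 members (18.8%), against 10.3% of all genes. All 6 were higher with YAP1/TAZ siRNA, a direction in which 7.13% of all genes had such a p, while 3.19% had one in the lower direction. They were the enzymes ENO2, PFKP, PKM and PFKM, the glucose transporter SLC2A3 and the HIF target KDM3A. Many genes on the array were dimmer than the members. In a fit of only the 11202 genes above the median level, 14.8% of genes had such a p, as did 4 of 26 members. The median difference of all 11202 genes was 0.045 on the log2 scale. The difference was above 0 for 26 of the 32 members, against 53.7% of all genes, and its median was 0.074 on the log2 scale, against 0.0075 for all genes. These are cell-culture averages, in which fewer cells of a kind and less RNA per cell cannot be told apart.

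**Figure D1:**
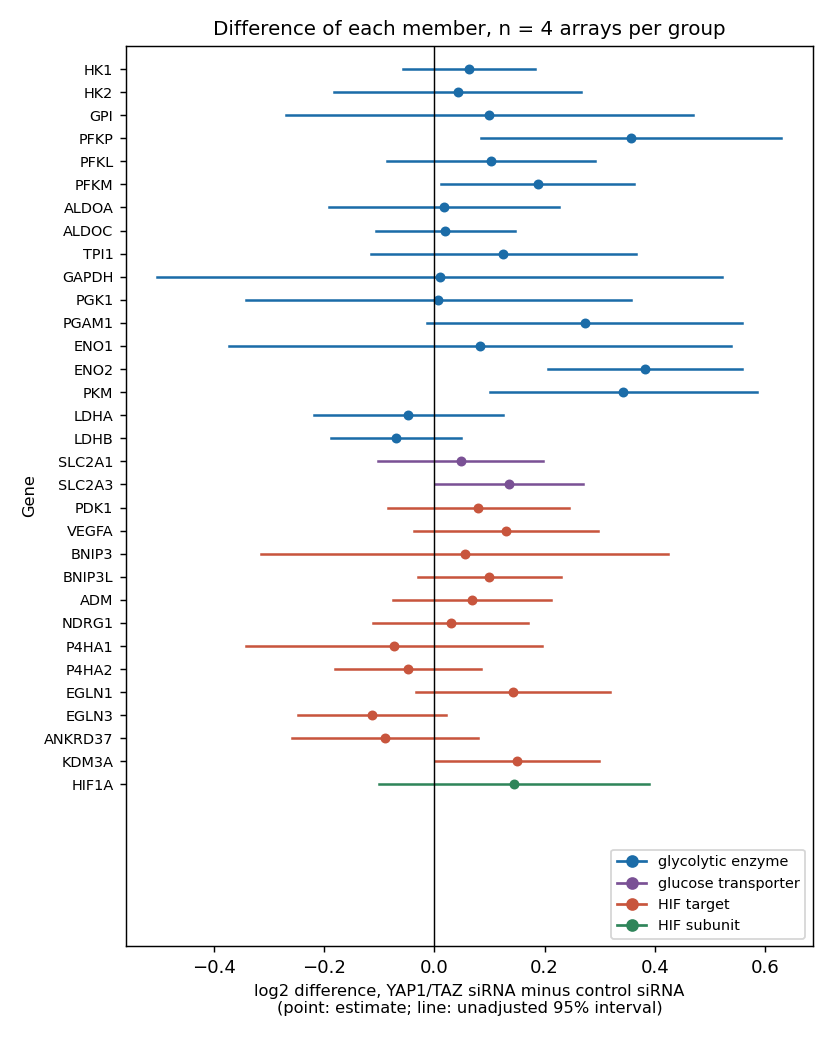
Log2 difference between YAP1/TAZ siRNA and control siRNA (x axis) for each of the 32 members (y axis), as estimate and unadjusted 95% interval from limma, with 4 arrays per group. ENO2, PFKP and PKM lie furthest to the right, and EGLN3, ANKRD37, P4HA1, LDHB, LDHA and P4HA2 lie left of 0.

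The first steps of glycolysis trap and isomerise glucose. HK1 and HK2, hexokinases that phosphorylate glucose, had differences of 0.062 (SE 0.053) and 0.042 (SE 0.099), the latter 0.11 without the arrays that stood apart. GPI, which converts glucose phosphate to fructose phosphate, read 10.58, 10.68, 10.57 and 10.12 on control replicates 1 to 4 and 10.63, 10.17, 10.79 and 10.76 on YAP1/TAZ siRNA replicates 1 to 4. Its low values were thus those of the arrays that stood apart, 1 in each group, and the difference of 0.10 (SE 0.16; 0.12 without those arrays) was smaller than the spread. The limma adjusted p of these 3 genes was 0.774 to 0.94.

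Phosphofructokinase, the committed step, is encoded by 3 genes, and all 3 had positive differences. PFKP, the platelet isoform, read 9.48, 9.42, 9.36 and 9.09 on the control arrays, a mean of 9.34 ± 0.17 (SD, n = 4). It read 9.72, 9.39, 9.84 and 9.83 on the YAP1/TAZ siRNA arrays, a mean of 9.70 ± 0.21 (SD, n = 4). The groups overlapped only through YAP1/TAZ siRNA replicate 2, whose 9.39 lay below 2 of the control values. The difference was 0.36 (SE 0.12), a 1.28-fold higher signal (limma unadjusted p = 0.0158, adjusted p = 0.334). It was 0.38 among the 6 other arrays and 0.30 between the arrays that stood apart. Without those arrays the limma adjusted p was 0.0477, with 0.839% of all genes passing. With them fitted as a block it was 0.0188, with 1.96% of all genes passing. Both fits rest on arrays picked from these values, and 0.214% of all genes passed in the main fit.

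PFKM, the muscle isoform, read 9.0, 9.01, 8.90 and 8.94 on the control arrays and 9.19, 8.94, 9.18 and 9.29 on the YAP1/TAZ siRNA arrays. Again 3 of the 4 YAP1/TAZ siRNA arrays lay above every control array. The difference was 0.19 (SE 0.077, limma unadjusted p = 0.0387, adjusted p = 0.444). It was 0.25 without the arrays that stood apart and 0.00 between them. PFKL, the liver isoform, had a difference of 0.10 (SE 0.083), within its spread of 7.32 to 7.52 on the control and 7.36 to 7.67 on the YAP1/TAZ siRNA arrays. Whether the 3 isoforms differ from each other in response was not tested.

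The middle of the pathway showed less. ALDOA and ALDOC, aldolases that cleave fructose bisphosphate, had differences of 0.018 (SE 0.092) and 0.020 (SE 0.055). TPI1, which interconverts the resulting trioses, had 0.12 (SE 0.11), with 10.59 to 10.86 on the control and 10.62 to 11.09 on the YAP1/TAZ siRNA arrays. The limma adjusted p of the 3 genes lay between 0.775 and 0.978.

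GAPDH and PGK1 carry out the oxidation of triose phosphate and the first ATP-yielding step, and GAPDH is widely used as a reference gene. GAPDH read 16.24, 16.26, 16.06 and 15.53 on the control arrays and 16.24, 15.41, 16.22 and 16.26 on the YAP1/TAZ siRNA arrays, the widest range of any member. Both low values were again those of the arrays that stood apart. The group means were 16.02 ± 0.34 and 16.03 ± 0.42 (SD, n = 4 each), and the difference was 0.010 with an unadjusted 95% interval of −0.50 to 0.52. Without the arrays that stood apart it was 0.053, and between them −0.12. PGK1 read 13.08, 13.05, 13 and 12.67 on the control arrays and 13.12, 12.50, 13.10 and 13.11 on the YAP1/TAZ siRNA arrays. Its difference was 0.0075 (SE 0.15), with an interval of −0.34 to 0.36, and it was 0.067 without those arrays and −0.17 between them. RefSeq lists 65 pseudogenes named after GAPDH and 13 named after PGAM1, and whether their sequences add to the array signal was not tested.

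PGAM1, the mutase that moves the phosphate within phosphoglycerate, read 9.42, 9.52, 9.48 and 9.30 on the control arrays and 9.74, 9.31, 9.91 and 9.85 on the YAP1/TAZ siRNA arrays. Apart from YAP1/TAZ siRNA replicate 2, every YAP1/TAZ siRNA array lay above every control array. PFKP, PFKM, PKM and KDM3A had this pattern too, and the share of all genes with it was not counted. Without YAP1/TAZ siRNA replicate 2, 16.9% of all genes had a limma unadjusted p under 0.05, against 10.3% in the main fit. The pattern is thus not shown to be particular to these members. The PGAM1 difference was 0.27 (SE 0.13, limma unadjusted p = 0.0593, adjusted p = 0.512). It was 0.36 without the arrays that stood apart (limma adjusted p = 0.0586) and 0.010 between them.

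Enolase makes phosphoenolpyruvate. ENO2, known as the neuronal enolase, read 8.11, 8.01, 8.08 and 7.85 on the control arrays and 8.33, 8.28, 8.47 and 8.50 on the YAP1/TAZ siRNA arrays. It was the only member of the 32 whose groups did not overlap, where 6.22% of all genes had groups that did not (4.19% higher and 2.03% lower with YAP1/TAZ siRNA). The mean went from 8.01 ± 0.12 to 8.40 ± 0.11 (SD, n = 4 each), a difference of 0.38 (SE 0.077) and a 1.3-fold higher signal (limma unadjusted p = 0.000852, adjusted p = 0.108). The difference was 0.37 among the 6 other arrays (limma adjusted p = 0.0587) and 0.43 between the arrays that stood apart. With those fitted as a block the limma adjusted p was 0.0188, where 1.96% of all genes passed. With arrays weighted by quality, where 2.49% of all genes passed, ENO2 (limma adjusted p = 0.0196) and PFKP (0.044) were the members that did. Over the 8 fits that left out 1 array it ran from 0.33 to 0.42, with limma adjusted p from 0.0571 to 0.299.

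ENO1, the enolase of most tissues, read 14.54, 14.56, 14.35 and 13.93 on the control arrays and 14.61, 13.87, 14.57 and 14.66 on the YAP1/TAZ siRNA arrays. The arrays that stood apart were the lowest of their groups, at −0.55 and −0.74 relative to the mean of the other arrays of the group, and the group difference was 0.083 (SE 0.20), with an unadjusted 95% interval of −0.37 to 0.54. It was 0.13 without those arrays and −0.060 between them. The interval includes the ENO2 difference, and the difference between the 2 enolases was not tested. A second, dimmer ENO1 cluster, with a control mean of 6.05, had a difference of 0.018.

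The promoters of both enolases, of PGK1 and of LDHA are shown because ENO2 was the member with the smallest p, ENO1 is its sister gene, and PGK1 and LDHA are standard examples of glycolytic HIF targets. Each window holds 250 bases before and 50 bases after the start of the gene, from RefSeq (GRCh38.p14), written in the direction of transcription. Capitals mark the core of the hypoxia response element, ACGTG or GCGTG, and the TEAD core, GGAATG, on either strand. Matches that overlap were counted as 1 site.
ENO2, chr12:6914330-6914629, plus strand: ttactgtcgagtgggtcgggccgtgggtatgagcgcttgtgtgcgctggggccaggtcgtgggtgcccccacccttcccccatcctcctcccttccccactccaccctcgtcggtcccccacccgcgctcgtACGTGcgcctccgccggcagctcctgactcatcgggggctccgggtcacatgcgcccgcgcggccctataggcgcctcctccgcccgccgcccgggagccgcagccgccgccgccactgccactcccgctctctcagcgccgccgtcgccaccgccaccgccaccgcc
ENO1, chr1:8878637-8878936, minus strand: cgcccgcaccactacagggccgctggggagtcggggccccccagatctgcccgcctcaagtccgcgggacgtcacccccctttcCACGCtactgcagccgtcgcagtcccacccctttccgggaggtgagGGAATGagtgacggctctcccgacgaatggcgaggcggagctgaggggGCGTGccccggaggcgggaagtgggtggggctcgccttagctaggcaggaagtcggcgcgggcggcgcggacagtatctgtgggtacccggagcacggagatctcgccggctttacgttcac
PGK1, chrX:78103998-78104297, plus strand: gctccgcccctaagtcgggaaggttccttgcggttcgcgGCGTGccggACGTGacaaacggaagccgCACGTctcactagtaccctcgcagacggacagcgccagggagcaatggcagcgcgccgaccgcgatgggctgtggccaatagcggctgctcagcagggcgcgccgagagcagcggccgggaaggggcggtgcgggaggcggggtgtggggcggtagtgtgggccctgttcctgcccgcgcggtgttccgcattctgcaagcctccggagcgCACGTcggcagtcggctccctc
LDHA, chr11:18394313-18394612, plus strand: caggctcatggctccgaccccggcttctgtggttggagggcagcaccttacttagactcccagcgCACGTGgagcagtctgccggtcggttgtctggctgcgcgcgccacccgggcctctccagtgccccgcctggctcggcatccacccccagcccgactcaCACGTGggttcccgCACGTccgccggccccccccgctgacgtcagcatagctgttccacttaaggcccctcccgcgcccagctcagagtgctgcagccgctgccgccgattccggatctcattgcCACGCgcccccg
ENO2 had 1 hypoxia site and no TEAD core, ENO1 had 2 hypoxia sites and 1 TEAD core, and PGK1 and LDHA had 4 hypoxia sites each and no TEAD core. A window that begins at the outermost RefSeq start of the gene was found for 20 of the 32 members. Of these, 17 (85.0%) held a hypoxia core, against 48.4% of 24885 promoter windows taken the same way. ENO1 alone held a TEAD core (5.0%), against 14.1% of all windows. The members were chosen as glycolysis and hypoxia genes, and the windows of all genes were not matched to theirs in base composition. The shares are thus a description and no test of either core. A match is a run of letters and was not tested as a binding site, and the windows leave out introns and distant enhancers.

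PKM encodes pyruvate kinase, the last ATP-yielding step. It read 11.53, 11.63, 11.48 and 11.26 on the control arrays, a mean of 11.48 ± 0.16 (SD, n = 4). It read 11.83, 11.56, 11.94 and 11.94 on the YAP1/TAZ siRNA arrays, a mean of 11.82 ± 0.18 (SD, n = 4). Only YAP1/TAZ siRNA replicate 2 fell within the control range. The difference of 0.34 (SE 0.11) was a 1.27-fold higher signal (limma unadjusted p = 0.011, adjusted p = 0.289), and it was 0.36 without the arrays that stood apart (adjusted p = 0.0588) and 0.30 between them. With those arrays fitted as a block the limma adjusted p was 0.0249, where 1.96% of all genes passed. The cluster reads the gene as a whole, so the spliced forms M1 and M2 were not separated.

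The dehydrogenases that end the pathway lay slightly the other way. LDHA, the subunit that favours lactate production and a standard HIF target, read 12.16, 12.17, 12.12 and 11.92 on the control arrays and 12.11, 11.90, 12.10 and 12.07 on the YAP1/TAZ siRNA arrays. LDHB, the subunit of oxidative tissues, read 14.37, 14.37, 14.44 and 14.38, then 14.29, 14.24, 14.37 and 14.38. The groups overlapped for both genes. The differences were −0.048 (SE 0.076) and −0.070 (SE 0.052), with unadjusted 95% intervals of −0.22 to 0.12 and −0.19 to 0.048. A rise of the size estimated for ENO2, PFKP or PKM lies outside both intervals.

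Of the 17 enzymes as a group, 15 had a difference above 0 and 2 below, with a median of 0.083 on the log2 scale. The 4 with an unadjusted p under 0.05 catalyse the phosphofructokinase, enolase and pyruvate kinase steps. No enzyme differed by as much as 2-fold. Over all genes the difference varied with signal level. Genes with a mean level between 7 and 13 had a median difference of 0.060 to 0.065. It was −0.015 for those up to 5 and 0.020 for those above 13.

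**Figure D2:**
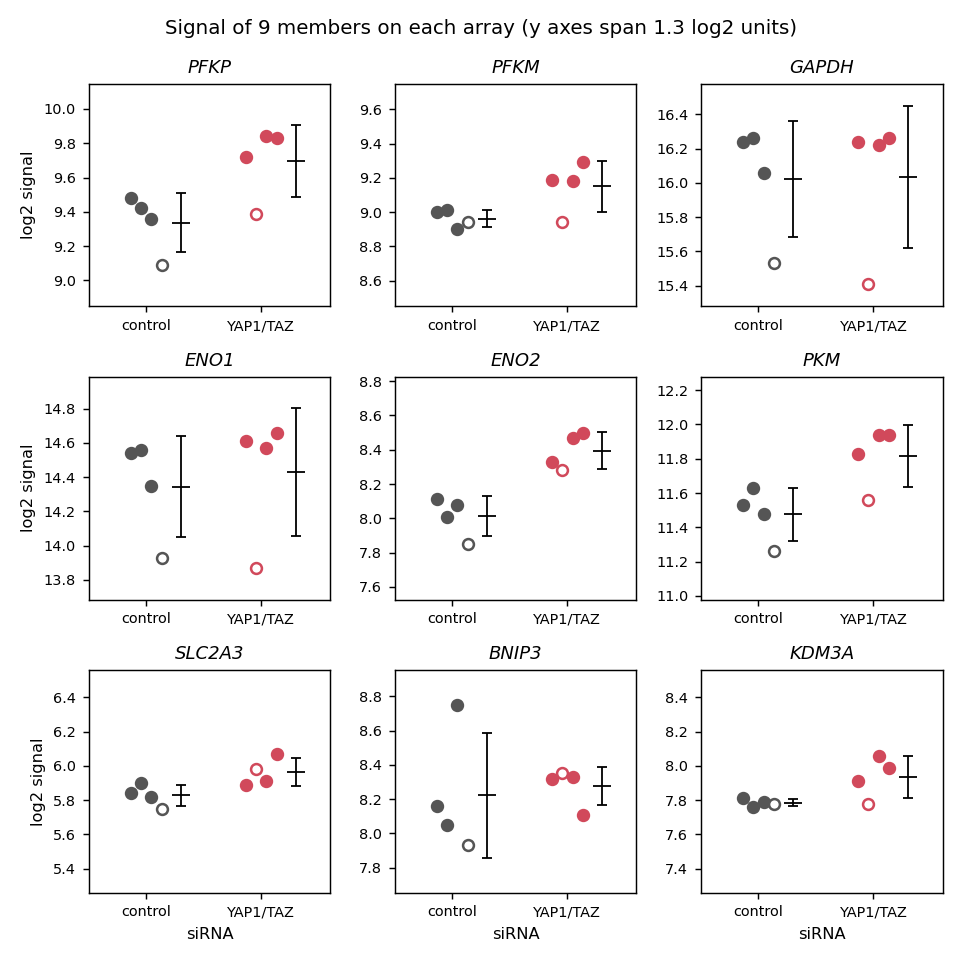
Log2 signal (y axes) on each array for 9 members, with points for the 4 control siRNA and the 4 YAP1/TAZ siRNA arrays (x axes) and a bar for the mean and SD beside them. Open points are control replicate 4 and YAP1/TAZ siRNA replicate 2, which lie far below the rest for GAPDH and ENO1, while for ENO2 the groups do not overlap.

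Glucose enters through facilitative transporters. SLC2A1 (GLUT1), the common carrier and a HIF target, read 6.66 to 6.79 on the control and 6.63 to 6.86 on the YAP1/TAZ siRNA arrays, a difference of 0.048 (SE 0.066). SLC2A3 (GLUT3), a high-affinity carrier of neurons, read 5.84, 5.90, 5.82 and 5.75 on the control arrays and 5.89, 5.98, 5.91 and 6.07 on the YAP1/TAZ siRNA arrays. Its difference was 0.14 (SE 0.059, limma unadjusted p = 0.0495, adjusted p = 0.482). The groups overlapped by 1 control array, and YAP1/TAZ siRNA replicate 2, at 5.98, was not low.

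HIF1A, the oxygen-regulated alpha subunit, read 12.09, 12, 11.92 and 11.74 on the control arrays and 12.10, 11.81, 12.21 and 12.21 on the YAP1/TAZ siRNA arrays. The difference was 0.14 (SE 0.11, limma adjusted p = 0.735), and it was 0.17 without the arrays that stood apart (limma unadjusted p = 0.0316, adjusted p = 0.25) and 0.070 between them. HIF1A is controlled mainly through protein stability, which arrays do not measure. EGLN1 and EGLN3, the prolyl hydroxylases that mark HIF alpha for destruction and are themselves HIF targets, pointed in opposite directions. EGLN1 had a difference of 0.14 (SE 0.078, limma adjusted p = 0.593) and EGLN3 of −0.11 (SE 0.059, adjusted p = 0.573). EGLN3, with a control mean of 3.83, lay below the median of all genes.

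Among the HIF targets that act on metabolism and chromatin, KDM3A had the clearest difference. KDM3A, a histone H3 lysine demethylase, read 7.81, 7.76, 7.79 and 7.78 on the control arrays and 7.91, 7.78, 8.06 and 7.99 on the YAP1/TAZ siRNA arrays. The control values were tight (SD 0.021) and 3 of the 4 YAP1/TAZ siRNA arrays exceeded them all. The difference was 0.15 (SE 0.065, limma unadjusted p = 0.048, adjusted p = 0.479), and it was 0.20 without the arrays that stood apart and 0.00 between them. PDK1, a pyruvate dehydrogenase kinase, had a difference of 0.080 (SE 0.073), which was 0.15 without those arrays and −0.14 between them.

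VEGFA and ADM encode secreted factors of vessel growth. VEGFA read 7.34 to 7.50 on the control and 7.36 to 7.67 on the YAP1/TAZ siRNA arrays, with a difference of 0.13 (SE 0.073, limma adjusted p = 0.604). ADM had 0.068 (SE 0.063). NDRG1, a stress-induced gene that responds strongly to low oxygen in many cells, had 0.030 (SE 0.062).

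BNIP3 and BNIP3L are receptors that direct mitochondria to autophagy. BNIP3 read 8.16, 8.05, 8.75 and 7.93 on the control arrays and 8.32, 8.35, 8.33 and 8.11 on the YAP1/TAZ siRNA arrays. Control replicate 3 was the highest control, though the gap test described below did not flag it. The control SD of 0.36 exceeded the difference of 0.055 (SE 0.16). With 1 array left out in turn the difference ran from −0.042 to 0.23. The highest was that without control replicate 3 (limma unadjusted p = 0.0274, adjusted p = 0.493). RefSeq lists 46 pseudogenes named after BNIP3. BNIP3L had a difference of 0.10 (SE 0.057, limma adjusted p = 0.609).

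P4HA1 and P4HA2, the catalytic subunits of the enzyme that hydroxylates collagen prolines, had differences of −0.072 (SE 0.12) and −0.048 (SE 0.059). P4HA1 read 8.98, 9.0, 8.93 and 9.15 on the control arrays and 9.06, 8.57, 9.11 and 9.03 on the YAP1/TAZ siRNA arrays. Here the arrays that stood apart lay in opposite directions, at 0.18 and −0.50 relative to the mean of the other arrays of the group. Without them the difference was 0.097, and between them it was −0.58. ANKRD37, an ankyrin-repeat gene induced by HIF, had −0.090 (SE 0.074).

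Of the 12 HIF targets, 8 had a difference above 0 and 4 below, with a median of 0.061, against 0.083 for the enzymes and 0.0075 for all genes. Only KDM3A among them had an unadjusted p under 0.05. Their differences ran from −0.11 to 0.15, a narrower span than the −0.070 to 0.38 of the enzymes. The HIF targets ADM, P4HA2, EGLN3 and ANKRD37 lay below the median level of all genes, as did the enzymes HK1 and ALDOC. In the fit of only genes above that level, the medians were 0.10 for the enzymes, 0.090 for the HIF targets and 0.045 for all genes. Without the arrays that stood apart the medians were 0.12 for the enzymes and 0.097 for the HIF targets. Between those arrays alone they were 0.010 and −0.010, with 9 of 17 and 5 of 12 genes above 0. Many of the enzymes are HIF targets too, so the groups are not separate in biology. The difference between them was not tested.

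**Figure D3:**
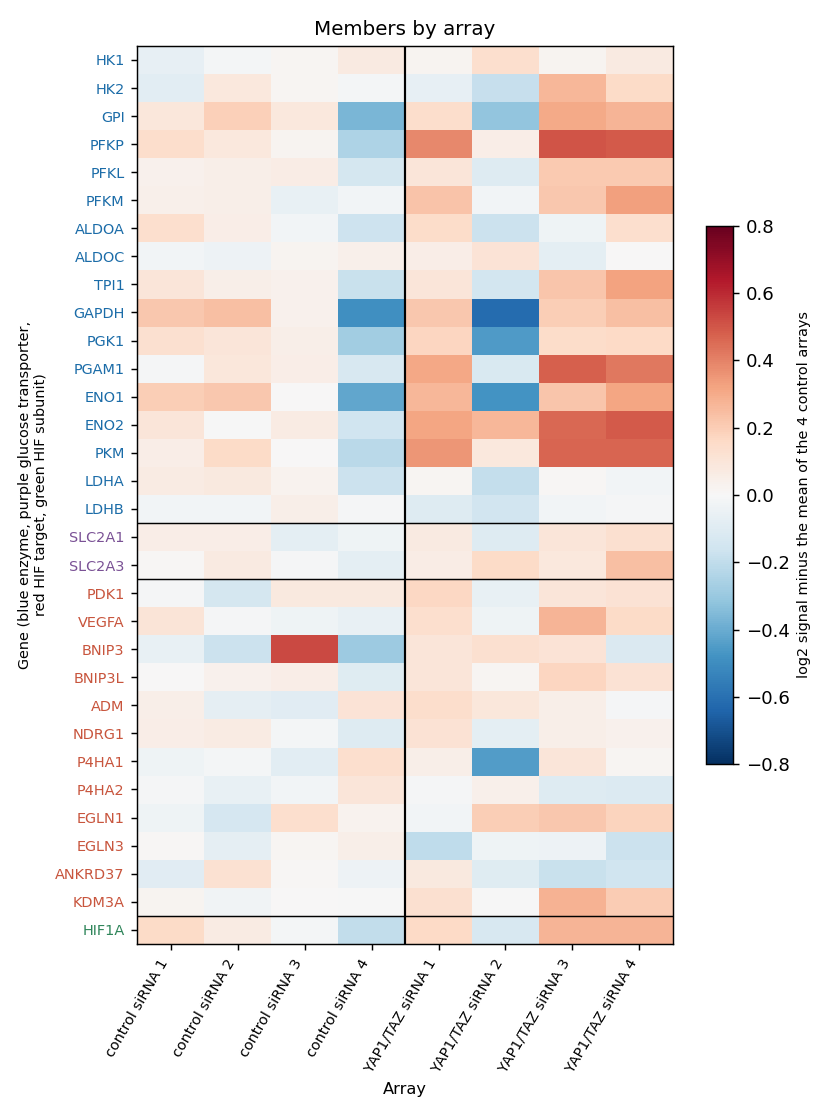
Log2 signal minus the mean of the 4 control arrays (colour scale) for the 32 members (y axis) on each of the 8 arrays (x axis), with lines between enzymes, glucose transporters, HIF targets and HIF1A. On control siRNA 4, 15 of 17 enzymes and 6 of 12 HIF targets are blue (below the control mean), and on YAP1/TAZ siRNA 2, 12 of 17 and 7 of 12.

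The arrays that stood apart were low for most enzymes. On control replicate 4 the enzymes lay from −0.66 (GAPDH) to 0.097 (HK1) relative to the mean of the other 3 controls, with a median of −0.22. On YAP1/TAZ siRNA replicate 2 they lay from −0.83 (GAPDH) to 0.12 (ALDOC) relative to the other 3 arrays of that group, with a median of −0.30. For 12 of the 17 enzymes (70.6%) both arrays were the lowest of their groups, as they were for 19.4% of all genes and for 3 of the 12 HIF targets (25.0%). The median of all genes on these arrays was 0.010 and 0.013. The median of the HIF targets was 0.015 and −0.063, and HIF1A itself read −0.26 and −0.36.

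Over all genes the displacement differed by signal level. Genes with a mean level above 7 and up to 13 had medians of −0.090 on control replicate 4 and −0.17 to −0.19 on YAP1/TAZ siRNA replicate 2, while those up to 5 had 0.060 and 0.10. In the same ranges the enzyme medians, each over 3 to 5 genes, were lower, at −0.19 to −0.29 and −0.27 to −0.41. Not every enzyme lay below the median of its range. HK2 (−0.020) and PFKM (−0.030) did not on control replicate 4, nor did ENO2 (−0.15) on YAP1/TAZ siRNA replicate 2. In the brightest range, above 13, ENO1 lay at −0.55 and −0.74 and GAPDH at −0.66 and −0.83, while LDHB, at −0.013 and −0.11, lay near the medians of the 353 genes of that range (−0.047 and −0.093). The part of signal level in these values was not tested.

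**Figure D4:**
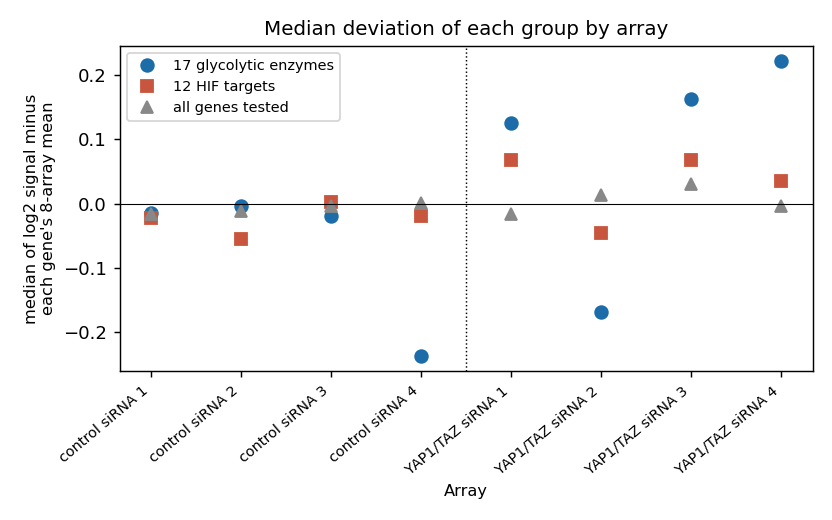
Median over 17 enzymes, 12 HIF targets and all genes (symbols) of the log2 signal minus each gene's mean over the 8 arrays (y axis), for each array (x axis). The enzyme median is −0.24 on control siRNA 4 and −0.17 on YAP1/TAZ siRNA 2 but 0.13 to 0.22 on the other YAP1/TAZ siRNA arrays, while the HIF target median stays between −0.056 and 0.069.

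Among the 6 arrays that did not stand apart, the enzyme medians were −0.019 to −0.0037 on the 3 controls. They were 0.13 to 0.22 on the 3 YAP1/TAZ siRNA arrays. The HIF target medians were −0.056 to 0.0031 and 0.036 to 0.069 on the same arrays. The medians of all genes were −0.016 to −0.0037 and −0.016 to 0.030. The 6 arrays were picked from these values, and genes of matched signal level were not compared in this way. With all 8 arrays the control and YAP1/TAZ siRNA medians overlapped for enzymes and for HIF targets.

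Further genes of these pathways were read from lists of general knowledge, to be set against the 10.3% of all genes with an unadjusted p under 0.05 and the 6.22% whose groups did not overlap. Of 28 other glycolysis genes measured, such as testis and liver isozymes and regulators, none passed the limma test and 3 (10.7%, near the share of all genes) had p under 0.05 unadjusted. PGAM5, a mitochondrial phosphatase named for its fold, had a difference of 0.22 (SE 0.080). LDHAL6B, a testis dehydrogenase gene, had −0.42 (SE 0.16), with groups that did not overlap and a control replicate 4 (5.51) above the other controls (4.65 to 5.0). PCK2, the mitochondrial enzyme that makes phosphoenolpyruvate, had −0.21 (SE 0.081). The limma adjusted p of these 3 was 0.372 to 0.417.

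A further list held genes of the mitochondrial pyruvate carrier and of pyruvate dehydrogenase and its regulators. Of the 11 measured, none passed the limma test and 2 (18.2%, against 10.3% of all genes) had p under 0.05 unadjusted. MPC2, a subunit of the mitochondrial pyruvate carrier, read 6.68 to 6.83 on the control and 6.28 to 6.64 on the YAP1/TAZ siRNA arrays, so its groups did not overlap, as for 6.22% of all genes. Its difference was −0.25 (SE 0.084, limma adjusted p = 0.335), while its partner MPC1 had 0.085 (SE 0.063). PDK3, a pyruvate dehydrogenase kinase, had 0.21 (SE 0.088) and PDHA1, the subunit that such kinases phosphorylate, 0.16 (SE 0.074). Of 12 other glucose and lactate transport genes, none passed the limma test and 1 (8.33%) had p under 0.05 unadjusted. It was SLC16A7 (MCT2), a monocarboxylate carrier, with −0.16 (SE 0.066) and groups that did not overlap. SLC2A13 and SLC2A4, further members of the glucose carrier family, had 0.10 (SE 0.096) and −0.050 (SE 0.047).

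Of 14 HIF pathway regulators measured, none passed the limma test and 1 (7.14%) had p under 0.05 unadjusted. ELOB, the elongin B subunit of the VHL ubiquitin ligase that destroys HIF alpha, read 6.91, 7.0, 7.01 and 6.95 on the control arrays and 7.18, 7.16, 7.34 and 7.26 on the YAP1/TAZ siRNA arrays. Its groups did not overlap, and the difference was 0.27 (SE 0.057, limma adjusted p = 0.123). CITED2, which competes with HIF for its co-activator, had −0.14 (SE 0.099) and ELOC, the partner of ELOB, 0.065 (SE 0.062).

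Of 40 other HIF target genes measured, 1 rose and 1 fell over all genes, where 0.214% of all genes passed. At an unadjusted p under 0.05 there were 7 (17.5%, against 10.3% of all genes), of which 2 were higher and 5 lower with YAP1/TAZ siRNA. WSB1, a ubiquitin ligase adaptor, rose by 0.70 (SE 0.066, limma adjusted p = 0.00559), from 9.82 to 9.92 on the control arrays to 10.49 to 10.74. LOX, which cross-links collagen, fell by 0.61 (SE 0.090, limma adjusted p = 0.046). These moved in opposite directions, and the median difference of the 40 was 0.0087. DDIT3, a stress-response factor, had −0.21 (SE 0.068, limma adjusted p = 0.32) with groups that did not overlap. Of 8 genes that respond to glucose, none passed the limma test and 2 (25.0%) had p under 0.05 unadjusted. MLXIPL, a transcription factor activated by glucose, had 0.16 (SE 0.053), PPARGC1A, a co-activator of mitochondrial genes, −0.12 (SE 0.052) and KLF11 0.12 (SE 0.057). TXNIP, which glucose induces strongly in many cells, had 0.0050 (SE 0.062).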

How the data were processed

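Total RNA was labelled with biotin and hybridised to whole-transcript arrays, per the labels' protocols. Values were deposited as log2 signals, 1 for each transcript cluster. The submitters' processing notes name Transcriptome Analysis Console. The sources used here give neither its version nor the summary method, normalization or build. The scale was taken as log2 because the values ran from 2.27 to 19.93. Arrays have no depth, and their number limits the precision.

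Of 67528 clusters, 23781 carried 1 symbol, 1543 several and 42204 none. Symbols were updated through RefSeq (21497 by Entrez identifier, 1974 by symbol, 306 by synonym, 4 kept). Of 22411 genes, 528 had several clusters. Samples were grouped by title. The test was lmFit with eBayes (limma 3.58.1, R 4.3.3) without covariates, and p-values were adjusted over all genes by the Benjamini-Hochberg method. In a simulation of this comparison over 22411 genes, 70% of changes of 0.5 and 92% of changes of 1 (log2) were found, and 14 of 176 calls were false. The noise was drawn independently for each gene and array, without the displacement shared by the arrays that stood apart. The changed genes were picked at random over all genes, so the percentages do not describe the members. Every member differed by less than 0.5.

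The members and lists were chosen with earlier results of these data known. Every measured member is named. Array-by-array values are given for members with an unadjusted p under 0.05, with groups that do not overlap, or among the 4 widest ranges. Those of GPI, PGK1, PGAM1, LDHA, LDHB, HIF1A and P4HA1, and the naming of MPC1, TXNIP and single marker genes, were chosen after their values were seen. Each pathway list is represented by its 3 smallest p and all genes that passed. Alternatives changed the normalization, the gene filter, the choice of cluster, the variance model, the array weights and blocks, and the arrays included. Those that drop or block the arrays that stood apart rest on a choice made from these values.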

Additional observations from a re-analysis of the deposited data

Results flagged for a closer look

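Each group of 4 arrays was searched for an array far from the other 3, by Dixon's gap test at the 95% level. Of 64 groups (32 members in 2 siRNA groups), 8 (12.5%) held such an array, against 7.52% over all genes, and chance alone gives about 1 in 20. The groups are not independent, since 4 of the 8 are the same array. YAP1/TAZ siRNA replicate 2 was low for GAPDH (15.41 against 16.22 to 16.26), PGK1 (12.5 against 13.1 to 13.12), ENO1 (13.87 against 14.57 to 14.66) and P4HA1 (8.57 against 9.03 to 9.11). Control replicate 4 was low for PFKL (7.32 against 7.5 to 7.52). Control replicate 3 was high for LDHB (14.44 against 14.37 to 14.38). YAP1/TAZ siRNA replicate 4 was low for BNIP3 (8.11 against 8.32 to 8.35), and YAP1/TAZ siRNA replicate 1 was low for EGLN1 (7.94 against 8.14 to 8.18).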

How the results depend on the processing

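No member passed with any 1 array left out. The members with an unadjusted p under 0.05 then numbered 3 to 12, against 6, where 7.56% to 16.9% of all genes had such a p. The 12 and the 16.9% were those without YAP1/TAZ siRNA replicate 2. The number of such members was 3 with the replicate number as a block (8.11% of all genes). It was 3 after quantile normalization (9.67% of all genes) and 3 when every transcript cluster was tested (7.3% of all clusters). Members that passed numbered 2 with array weights, 1 without the 2 arrays that stood apart and 3 with those arrays as a block. The deviations of same-numbered arrays had r of 0.368, −0.47, 0.0162 and −0.389, with 2 of 8 arrays closest to their own number. The 2 arrays that stood apart bear different numbers and weigh on these values. The values therefore cannot decide whether the numbers mark pairs, and the labels do not say it. Genes that passed over the whole array numbered 48, against 3 with the replicate block, 16 with every cluster, 25 after centring, 72 after quantile normalization, 82 above the median level, 559 with array weights, 188 without the arrays that stood apart, 439 with them as a block and 12 to 166 with 1 array left out. PFKP, ENO2 and PKM, the members with the smallest p in the main fit, kept a limma unadjusted p under 0.05 in all 18 alternatives. These fits reuse the same 8 arrays, and the share of all genes that did so was not counted. Of 570 recomputed member differences 543 kept their sign. Quantile normalization turned HK2 (−0.015), ALDOA (−0.0094) and PGK1 (−0.0048), centring turned PGK1 (−0.0025), array weights turned P4HA1 (0.038), and leaving out the arrays that stood apart turned BNIP3 (−0.067) and P4HA1 (0.097). With 1 array left out, differences ran from −0.032 to 0.12 for HK2, −0.022 to 0.24 for GPI, −0.037 to 0.082 for ALDOA, −0.010 to 0.053 for ALDOC, −0.15 to 0.22 for GAPDH, −0.086 to 0.16 for PGK1, −0.056 to 0.27 for ENO1, −0.10 to 0.00083 for LDHA, −0.042 to 0.23 for BNIP3, −0.0050 to 0.065 for NDRG1 and −0.13 to 0.052 for P4HA1. The causes were not tested. Changes smaller than 0.5 were not simulated, so how often the test finds them with 4 arrays a group is unknown.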
